A study of Mus musculus with 31 samples.

Results

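The ATP synthase subunits described here are 10 nuclear genes of the mitochondrial F1Fo complex, Atp5a1, Atp5b, Atp5c1, Atp5d, Atp5o, Atp5g1, Atp5g2, Atp5g3, Atp5k and Atp5l, followed through all 8 groups of a mouse study of the nuclear receptor ERRα. They are the listed nuclear-encoded subunits that both count tables hold, found by mapping Ensembl gene IDs to symbols with GENCODE vM21 under the old Atp5 names. They make up 10 of the 34519 genes present in both tables, and Atp5g1, Atp5g2 and Atp5g3 are paralogs that encode a common subunit, c. The study compared livers of WT and whole-body ERRα-/- mice after saline or insulin, and livers and skeletal muscles of WT and ERRα3SA mice. All mice were C57BL/6N on a normal diet, and RNA was total RNA from frozen tissue. In the insulin experiment, treatment was assigned to the mice at random. After a 12 h overnight fast, saline or insulin (1 unit/kg) was injected into the peritoneum. The groups were WT saline, WT insulin and ERRα-/- saline with 4 samples each, and ERRα-/- insulin with 3 (replicates 1, 2 and 4). In the ERRα3SA experiment the groups were WT liver, ERRα3SA liver, WT muscle and ERRα3SA muscle, with 4 samples each and no treatment given. ERRα3SA is a knock-in made with CRISPR/Cas9 in which serines that GSK3β phosphorylates were changed to alanine. The change is in the germline, as is the loss of ERRα in ERRα-/- mice, so effects inside hepatocytes or fibres cannot be told apart from effects that reach them from elsewhere. The paper describes its mice as young adult male littermates matched for age unless stated otherwise. Age and the time from injection to collection come from the paper and not from the labels, which also do not say which of the muscles that the paper lists as collected, gastrocnemius and soleus, was sequenced. The paper counts single mice as its n, the labels do not say so for each sample, and p-values measure the spread between these samples. Depth was 37508292 to 41740965 counts per sample in WT saline, 35871419 to 40590962 in WT insulin, 39250853 to 48317108 in ERRα-/- saline and 38156804 to 40067603 in ERRα-/- insulin. In the other experiment it was 23426588 to 33412022 in WT liver, 20481405 to 22836176 in ERRα3SA liver, 23561675 to 25831378 in WT muscle and 22241960 to 28835765 in ERRα3SA muscle. The member with the fewest counts in any sample was Atp5k, with 151 in ERRα-/- insulin replicate 2, and the most were 93174 for Atp5b in ERRα3SA muscle replicate 3.

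ATP synthase, or complex V, makes ATP in the inner mitochondrial membrane by letting protons flow through a rotating ring of c subunits, whose turning drives the γ and δ stalk inside a head of α and β subunits. A peripheral stalk, to which the subunit called OSCP belongs, holds the head still, and small membrane subunits such as e and g sit where complexes pair along the cristae. ERRα is known for controlling nuclear genes of oxidative metabolism together with coactivators of the PGC-1 family, and liver and skeletal muscle differ widely in how much oxidative capacity they hold.

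The c subunit is where the paralogs meet, and its coding sequence shows how alike the genes are. Atp5g1 (ENSMUSG00000006057, chr11:96068852-96075670), Atp5g2 (ENSMUSG00000062683, chr15:102662864-102672352) and Atp5g3 (ENSMUSG00000018770, chr2:73908447-73911326) all lie on the minus strand of GRCm38 (mm10). Their precursors have 136, 146 and 141 residues and differ in the import leader of 61, 71 and 66 residues, while the mature 75 residues are the same in all 3. The 225 bases below encode that mature protein, from chr11:96073107-96073635, chr15:102663017-102665166 and chr2:73908596-73909296 with introns removed, and are shown because reads from this stretch can be given to a paralog only by the bases that differ. Capitals in Atp5g2 and Atp5g3 mark the bases that differ from Atp5g1.
Atp5g1: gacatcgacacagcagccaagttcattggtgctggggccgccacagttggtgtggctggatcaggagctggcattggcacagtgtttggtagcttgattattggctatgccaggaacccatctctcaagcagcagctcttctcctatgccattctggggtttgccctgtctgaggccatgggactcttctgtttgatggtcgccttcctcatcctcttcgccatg
Atp5g2: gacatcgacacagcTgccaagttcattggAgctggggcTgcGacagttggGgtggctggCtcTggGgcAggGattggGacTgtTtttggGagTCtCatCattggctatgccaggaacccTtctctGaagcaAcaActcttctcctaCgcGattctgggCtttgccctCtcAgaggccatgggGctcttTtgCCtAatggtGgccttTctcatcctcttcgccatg
Atp5g3: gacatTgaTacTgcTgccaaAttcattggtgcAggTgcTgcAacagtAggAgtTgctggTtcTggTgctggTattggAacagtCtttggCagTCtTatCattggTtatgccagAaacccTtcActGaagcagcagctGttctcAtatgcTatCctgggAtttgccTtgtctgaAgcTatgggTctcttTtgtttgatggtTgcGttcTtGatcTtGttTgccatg
Atp5g2 differed from Atp5g1 at 34 of the 225 bases and Atp5g3 at 45, so that 84.9 and 80% of bases were the same, and Atp5g2 and Atp5g3 shared 78.7%. The longest run without a difference was 20 bases between Atp5g1 and Atp5g2, 11 between Atp5g1 and Atp5g3 and 8 between Atp5g2 and Atp5g3. All base changes were silent, in 32, 42 and 44 codons of the same pairs, and Atp5g3 had the lowest GC content (45.8%, against 54.7% in Atp5g1 and 55.6% in Atp5g2).

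Esrra, which encodes ERRα, was measured first as a check of the knockout. Expression is given as CPM, with library sizes scaled by TMM within each count table, and replicates are listed in their numbered order. Esrra was at 32.3, 51.3, 42.7 and 40.5 CPM in WT saline, 53.7, 96.5, 56.1 and 59.0 in WT insulin, 1.63, 0.703, 1.15 and 1.04 in ERRα-/- saline, and 0.833, 0.576 and 0.298 in ERRα-/- insulin. All 7 ERRα-/- livers lay far below all 8 WT livers. In the quasi-likelihood test of edgeR with Benjamini-Hochberg adjustment over all genes, the log2 fold change was −5.20 with saline (standard error 0.24, adjusted p = 2.58e-06, 4 of 4 samples lower) and −6.86 with insulin (standard error 0.37, adjusted p = 3.55e-05, 3 of 3 lower). In the ERRα3SA experiment Esrra was at 27.7, 27.1, 28.2 and 29.5 CPM in WT liver, 29.4, 25.4, 21.1 and 19.2 in ERRα3SA liver, 90.2, 82.7, 67.0 and 78.1 in WT muscle, and 24.3, 133, 127 and 94.6 in ERRα3SA muscle. ERRα3SA muscle replicate 1 was below all WT muscles and the other 3 above all of them.

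Sums of tissue markers followed the labels. The sum of 5 hepatocyte genes, with Alb the most abundant, was 54780.3 to 104867 CPM in livers and 0.160 to 1.26 CPM in muscles. The sum of 5 muscle fibre genes was 65086 to 144379 CPM in muscles, where Myh4 led, and at most 61.6 CPM in livers, a value reached in WT insulin replicate 3. Tnnc2, one of the 5 and also on the list of fast fibre genes, was at only 0.237 to 2.17 CPM in muscles. Fast fibre genes summed to 96751 to 109197 CPM in WT muscle, against 5741 to 6816 for slow or oxidative fibre genes. Some libraries stood apart. ERRα3SA muscle replicate 1 had 19.3% of its counts on the mitochondrial genome, against 9.15 to 9.85% in the others of its group, 176629 CPM of fast fibre genes against 73432 to 104450.4, 10754 CPM of slow or oxidative fibre genes against 4779 to 5791 (Myh2 6425, with Myl3 and Tnni1 lowest in that library at 277 and 81.3), and 16984 genes detected against 20237 to 20878. Myh4 carried most of its fast fibre sum (104328 CPM, against 32881 to 46343), while Pvalb was lower (2782 against 4728 to 7768). With genes split by GC content into 5 bins of equal size, its median log2 difference from the rest of its group was 0.54 in the lowest bin (34.3 to 44.4% GC), then 0.36, 0.12 and −0.21, and −0.69 in the highest (55.4 to 72.3% GC). In replicates 2, 3 and 4 of that group the slow fibre genes Myh7 (487 to 739.5 CPM) and Tnnc1 (104 to 147) were below all WT muscles (863 to 942 and 166 to 205), while Myh2, Myl2, Myl3 and Tnnt1 overlapped them. Atp2a2 was below all WT muscles (776 to 922 CPM) in replicates 2 and 3 (658 and 771) and above them in replicate 4 (978). Tnni1 in replicates 2, 3 and 4 (88.4, 119 and 139 CPM) was below or level with the lowest WT muscle (139). ERRα3SA muscle replicate 4 had macrophage genes at 273 CPM, against 48.7 to 53.9 in the other 3, and fibroblast genes at 2649 CPM, against 967 to 1463, from Col3a1 (1444 CPM) and Col1a1 (828), with Dcn lowest in that library (377 against 427 to 990.1). ERRα3SA liver replicate 4 had the 54780.3 CPM of hepatocyte genes, against 87679.6 to 101009.7 in its group. Alb (39835 CPM), Ttr (3904) and Cps1 (3402) were lower there than in the other 3, Apoa1 (5587) was within their range and Serpina1a (2052 against 1555 to 1635) above it. Macrophage genes were higher there than in the other 3, among them Clec4f (164 CPM against 123 to 139.6) and Lyz2 (82.3 against 47.6 to 51.9). WT insulin replicate 2 had 1.88% of its counts on the mitochondrial genome, against 3.88 to 4.17% in its group. Exocrine pancreas genes reached 881 CPM in WT saline replicate 4 and 662 in replicate 1, with at most 8.15 in ERRα-/- insulin. Endothelial genes summed to 85.0 to 282 CPM in all samples and red blood cell genes to at most 368, adipocyte genes to at most 10.2 in livers and 198 in muscles, brown adipocyte genes to at most 1.82 and cardiac genes to at most 6.76. In bulk RNA such as this, fewer cells of a type and less RNA per cell cannot be told apart, and the part of these differences in the results below was not tested beyond leaving each library out.

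The remaining members lie elsewhere in GRCm38, with Atp5c1 on the same chromosome as Atp5g3. The members that belong to F1, the head with its central stalk, are α (Atp5a1, ENSMUSG00000025428, chr18:77773729-77782869), β (Atp5b, ENSMUSG00000025393, chr10:128083273-128090391), γ (Atp5c1, ENSMUSG00000025781, chr2:10056016-10080510) and δ (Atp5d, ENSMUSG00000003072, chr10:80138632-80145818). OSCP comes from Atp5o (ENSMUSG00000022956, chr16:91925214-91931687), e from Atp5k (ENSMUSG00000050856, chr5:108433244-108434448) and g from Atp5l (ENSMUSG00000038717, chr9:44912557-44920742). Sequence shared with other annotated genes limits how well some members can be counted. Of all 50-base words in the main transcript, 87.4% also stand in another annotated gene for Atp5g2, 84.8% for Atp5l, 66% for Atp5g1 and 50.3% for Atp5o, and 0% for Atp5d and Atp5g3. For Atp5o, 194 of the 397 shared words stand in a further Ensembl ID of the same name that overlaps its own exons. D430001F17Rik, which overlaps them too, is another of its sharing genes. Counts given to the sharing genes were small, reaching 8.16% of the CPM of Atp5l, 5.08% of Atp5g2 and 2.87% of Atp5g1. Reads matching several genes may have been counted for none of them. These counts therefore cannot show how many reads the members lost. Exons of Atp5o also overlap antisense exons of Gm15976 and D430001F17Rik over 18.1 and 17.5% of their length, and the strand setting of the counting is not given in the sources used here.

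Loss of ERRα in the fasted, saline-injected liver came with lower transcript levels of subunits α, β, γ and OSCP and of Atp5g1. The δ subunit, Atp5g2, Atp5g3 and the small membrane subunits overlapped between the genotypes. Atp5a1, the α subunit of the head, was at 818, 895, 808 and 889 CPM in WT saline and 665, 566, 545 and 597 in ERRα-/- saline. Atp5b, the β subunit that carries the catalytic sites, was at 929, 903, 921 and 932 CPM in WT saline and 762, 699, 709 and 671 in ERRα-/- saline. Atp5c1, the γ subunit that turns inside the head, was at 150.0, 136, 145 and 158 CPM in WT saline and 110.2, 109.8, 103 and 107 in ERRα-/- saline. For these genes every ERRα-/- liver was below every WT liver, and WT livers were close to each other. Atp5o, which encodes OSCP at the top of the peripheral stalk, was at 72.5, 65.0, 75.8 and 75.9 CPM in WT saline and 44.2, 44.6, 44.1 and 49.7 in ERRα-/- saline. Atp5g1, encoding subunit c, was at 57.7, 51.1, 64.2 and 65.5 CPM in WT saline and 41.1, 42.9, 41.4 and 41.2 in ERRα-/- saline. Both were again lower in all ERRα-/- livers, with the ERRα-/- livers almost level for Atp5g1 and replicate 4 the highest of them for Atp5o.

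A gene was called when its unadjusted p was under 0.05 and its fold change at least 1.2, the cutoffs of the study applied to p-values of edgeR where the paper used DESeq2, and adjusted p-values are given beside the calls. With saline, 5 of the 10 members were called lower in ERRα-/- livers and 0 higher, where 5.30% of the 13481 genes tested were called lower. All 10 estimates were below 0, with a median log2 fold change of −0.35 against 0.00 over all genes. Atp5o fell most, by 1.58-fold, or −0.66 on the log2 scale (standard error 0.10), with an adjusted p of 0.0316 in the quasi-likelihood test of edgeR with Benjamini-Hochberg adjustment, lower in 4 of 4 samples. It was among the 0.0371% of genes lower at an adjusted p under 0.05. Over the alternatives its adjusted p ran from 1.78e-06 with DESeq2 to 0.132 without ERRα-/- saline replicate 3, and with 1 sample left out it was under 0.05 only without ERRα-/- saline replicate 2 (0.0432) or WT saline replicate 2 (0.031). Atp5a1 and Atp5g1 followed at −0.52 each (standard errors 0.11 and 0.10), then Atp5c1 at −0.45 (0.09) and Atp5b at −0.37 (0.10). By the quasi-likelihood test of edgeR with Benjamini-Hochberg adjustment these 4 had adjusted p-values of 0.131 to 0.198, with 4 of 4 samples lower for each, while DESeq2 put all 5 under 0.05. Atp5d and Atp5g2 had estimates of −0.05 (95% intervals −0.29 to 0.18 and −0.31 to 0.20). Atp5l was at −0.17 (−0.45 to 0.11) and was called lower only without WT saline replicate 2, at −0.28.

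**Figure D1:**
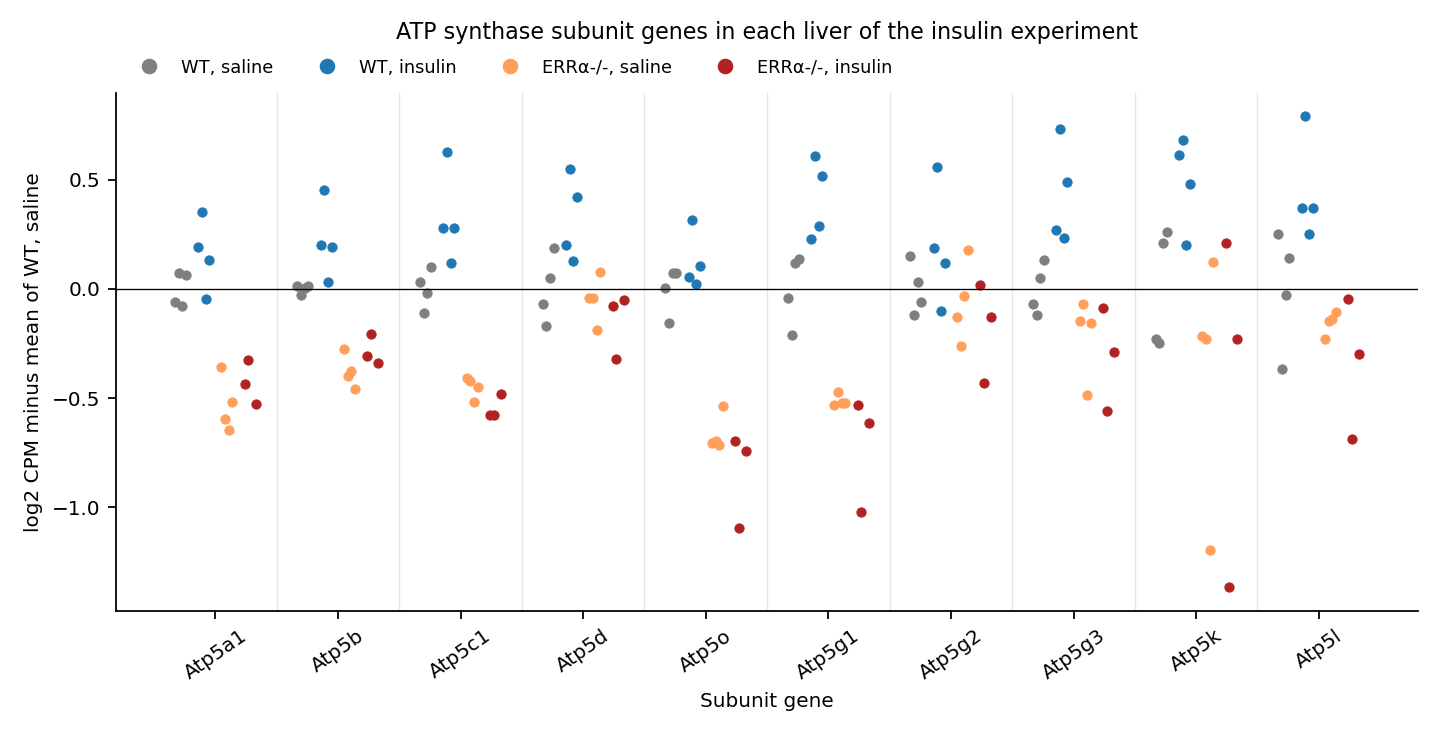
Log2 CPM of the 10 subunit genes in each liver of the insulin experiment, relative to the mean of WT saline. Both ERRα-/- groups lie below the line for Atp5a1, Atp5b, Atp5c1, Atp5o and Atp5g1, and all WT insulin livers lie above the WT saline livers for Atp5b, Atp5c1, Atp5g1, Atp5g3 and Atp5l.

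Insulin in WT livers came with higher levels of subunits γ, δ, c, e and g. Subunits α, β and OSCP were not called, and of the subunit c paralogs Atp5g2 was not. Atp5g3, the paralog with the largest share of the counted subunit c transcripts in liver, was at 151, 146, 164 and 174 CPM in WT saline and 191, 263, 186 and 223 in WT insulin. Atp5g1 was at 69.6, 90.4, 72.3 and 84.7 CPM in WT insulin, and Atp5l, the g subunit, went from 66.1, 43.1, 54.4 and 61.5 in WT saline to 72.0, 96.5, 66.2 and 72.1. Atp5c1 was at 178, 227, 159.9 and 179 CPM in WT insulin. In these 4 genes every insulin liver was above every saline liver, for Atp5l by a hair (66.2 against 66.1 CPM), and replicate 2 was the highest insulin liver. Atp5k, encoding subunit e, was at 9.19, 9.07, 12.5 and 12.9 CPM in WT saline and 16.5, 17.4, 12.4 and 15.1 in WT insulin. Atp5d, the δ subunit of the central stalk, was at 142, 133, 154 and 170.3 CPM in WT saline and 171, 218, 163 and 199 in WT insulin. For these last genes the groups overlapped by WT insulin replicate 3. Atp5a1 at 976, 1087, 826 and 935 CPM overlapped the saline livers, whereas Atp5b at 1063, 1258, 940.2 and 1050.3 CPM did not.

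In total 6 of 10 members were called higher with insulin in WT livers and 0 lower, where 8.34% of the 13463 genes tested were called higher. The median log2 fold change was 0.33, against 0.00 over all genes, and all 10 estimates were above 0. They ran from 0.13 for Atp5o (standard error 0.11) to 0.49 for Atp5k (standard error 0.17, 95% interval 0.11 to 0.87). Fitted with all groups of the experiment, Atp5k was not called (0.49, −0.11 to 1.09) and the count was 5. Atp5g3 was higher by 0.45 (standard error 0.14) with an adjusted p of 0.122 in the quasi-likelihood test of edgeR with Benjamini-Hochberg adjustment, in 4 of 4 samples, and its adjusted p over the alternatives ran from 0.0452 with DESeq2 to 0.259. That test gave 0 members at an adjusted p under 0.05, and DESeq2 gave 1. The count of 6 moved to 3 (Atp5g1, Atp5g3 and Atp5k) without WT saline replicate 2 or without WT insulin replicate 2, and the latter lowered the median to 0.23. It moved to 4 without WT saline replicate 1 or 3, to 5 without WT insulin replicate 4 and to 7, with Atp5b added, without WT insulin replicate 3. Esrra itself was higher by 0.67 (standard error 0.21, adjusted p = 0.122 by the quasi-likelihood test of edgeR with Benjamini-Hochberg adjustment, 4 of 4 samples higher).

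In ERRα-/- livers insulin left the members near their saline levels. Atp5g3 was at 143, 151, 113 and 142 CPM in ERRα-/- saline and 149, 108 and 129 in ERRα-/- insulin, and Atp5l was at 47.6, 50.3, 50.4 and 51.5 and then 53.8, 34.4 and 45.1. For Atp5g3 replicate 2 lay below the saline range and the other insulin livers inside it, and for Atp5l replicate 1 lay above the range and the other 2 below it. Atp5c1 was at 98.0, 98.4 and 106 CPM with insulin, Atp5d at 141, 119 and 144 after 145, 145, 131 and 157 with saline, and Atp5o at 44.4, 33.7 and 43.0. Atp5g1, at 41.0, 29.3 and 38.8 CPM, was the member in which all 3 insulin livers were below all saline livers, by a small margin in replicate 1. Replicate 2 was the lowest insulin liver for 7 members, with Atp5k at 4.14 CPM against 12.5 and 9.23. Atp5a1 (630.0, 681 and 594 CPM) and Atp5b (746, 796 and 731 CPM) were highest in that same library.

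No member was called in either direction with insulin in ERRα-/- livers, where 17.2% of the 13684 genes tested were. By the quasi-likelihood test of edgeR with Benjamini-Hochberg adjustment 0 members passed, the lowest adjusted p was 0.449 (Atp5g1, −0.20, 3 of 3 samples lower), and 0 had an unadjusted p under 0.05. DESeq2 also called 0. Estimates ran from −0.20 (Atp5g1, 95% interval −0.48 to 0.08) to 0.09 (Atp5a1 and Atp5b), with a median of −0.10 against −0.02 over all genes. Without ERRα-/- insulin replicate 2 the median was −0.01, and without replicate 1 it was −0.22 and Atp5l was called lower.

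The difference between the genotypes in the response to insulin was tested directly. As the interaction, the insulin effect in WT minus that in ERRα-/- livers, all 10 estimates were above 0 with a median of 0.43, against 0.02 over all genes. Called higher were 5 of 10 members, where 4.75% of the 14670 genes tested were. Atp5g1 and Atp5l had interactions of 0.61 (standard errors 0.18 and 0.23), Atp5g3 of 0.53 (0.20), Atp5c1 of 0.43 (0.16) and Atp5d of 0.42 (0.17). Atp5k was not called, at 0.50 with a 95% interval of −0.39 to 1.40, nor were Atp5a1 and Atp5b, at 0.07 and 0.13. The lowest adjusted p among members was 0.423 (Atp5g1) by the quasi-likelihood test of edgeR with Benjamini-Hochberg adjustment, in which 0 of all genes were under 0.05, with 5 members and 1289 of all genes at an unadjusted p under 0.05. DESeq2 put 0 members under 0.05 after adjustment, and called 5. The adjusted p of Atp5g1 ran from 0.15 to 0.845 over the alternatives. Leaving out ERRα-/- insulin replicate 2 left 2 calls, Atp5g1 and Atp5c1, and a median of 0.28, and leaving out replicate 1 gave 6, with Atp5o added. The count was 4, without Atp5d, when ERRα-/- saline replicate 4, WT saline replicate 2 or WT insulin replicate 2 was left out.

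**Figure D2:**
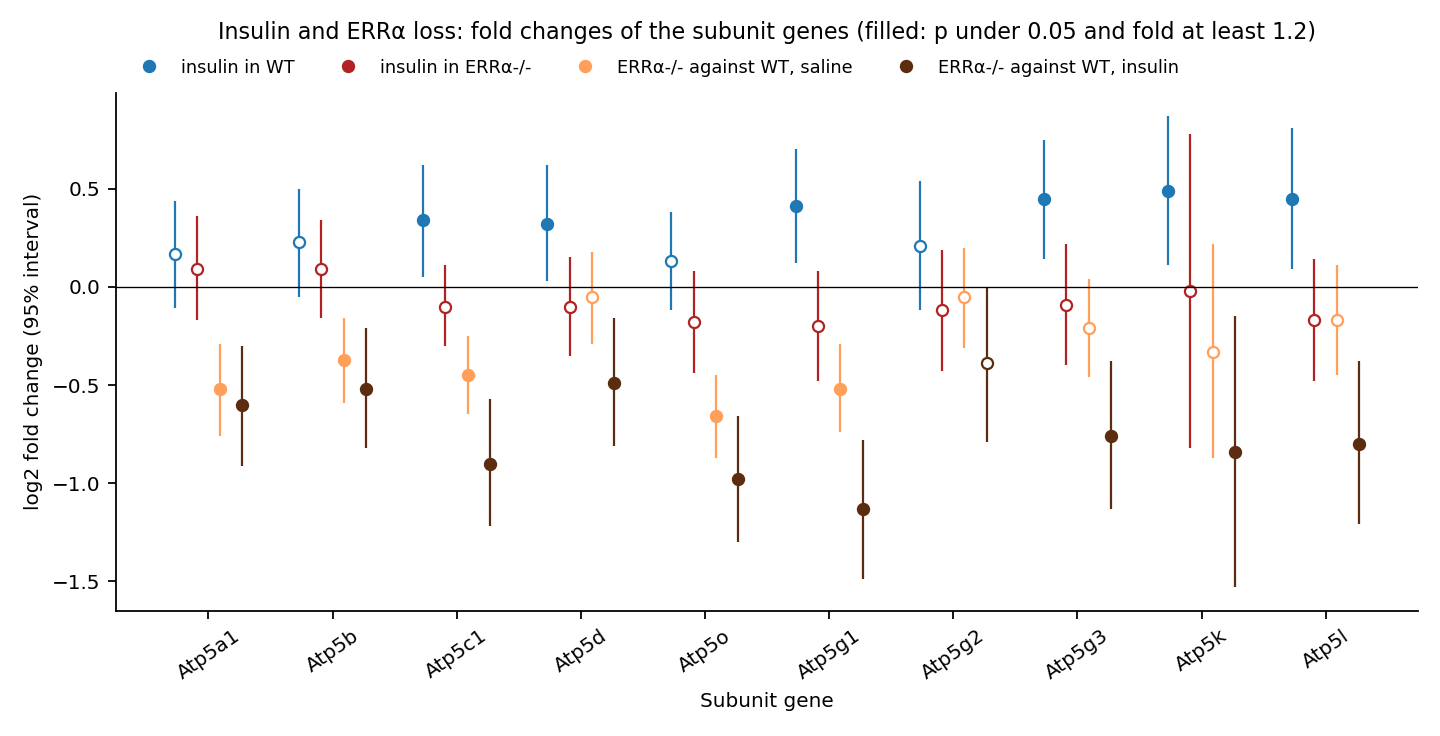
Log2 fold changes of the 10 subunit genes with 95% intervals for insulin in each genotype and for ERRα-/- against WT with each treatment. Insulin estimates are above 0 in WT and near or below 0 in ERRα-/-, and the difference between genotypes is wider with insulin than with saline for all 10 genes.

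The genotypes were farthest apart after insulin. Between the insulin-treated groups all 10 estimates were below 0, and Atp5g2 was the member not called. Atp5o was at 75.1, 89.9, 73.7 and 77.6 CPM in WT insulin. In this gene, and in Atp5g1 and Atp5c1, every ERRα-/- insulin liver was far below every WT insulin liver. The hepatocyte sum also separated these groups, at 97478 to 104512 CPM in ERRα-/- insulin and 78569 to 87559 in WT insulin, and its part in the result was not tested. Atp5k, at 12.5, 4.14 and 9.23 CPM with insulin in ERRα-/- livers, overlapped the WT insulin livers. Atp5g2, the other paralog of subunit c, was at 41.8, 34.8, 38.6 and 36.1 CPM in WT saline, 43.2, 55.8, 35.1 and 41.1 in WT insulin, 34.6, 31.4, 36.9 and 42.8 in ERRα-/- saline and 38.3, 28.0 and 34.5 in ERRα-/- insulin. Its groups overlapped in each of these comparisons.

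Called lower after insulin were 9 of 10 members, where 5.42% of the 13665 genes tested were, with a median log2 fold change of −0.78 against −0.02 over all genes. Atp5g1 fell 2.20-fold, or −1.13 on the log2 scale (standard error 0.16, 95% interval −1.49 to −0.78), with an adjusted p of 0.0498 in the quasi-likelihood test of edgeR with Benjamini-Hochberg adjustment, lower in 3 of 3 samples. It was among the 0.0293% of genes lower at an adjusted p under 0.05. Its adjusted p ran from 3.23e-07 with DESeq2, where 7 members passed, to 0.399 without ERRα-/- insulin replicate 2. With 1 sample left out it was under 0.05 only without WT insulin replicate 2 (0.026). Atp5o was lower by 1.97-fold (−0.98, standard error 0.14) and Atp5c1 by 1.86-fold (−0.90, 0.15), in 3 of 3 samples each, with adjusted p-values of 0.0506 and 0.0898 by the quasi-likelihood test of edgeR with Benjamini-Hochberg adjustment. Atp5l, Atp5g3, Atp5a1, Atp5b and Atp5d ranged from −0.80 to −0.49. Atp5k was at −0.84 (standard error 0.31, 2 of 3 samples below all controls), and at −0.51 without ERRα-/- insulin replicate 2. Atp5g2 was at −0.39 (95% interval −0.79 to 0.00), and was called lower without ERRα-/- insulin replicate 1 or WT insulin replicate 3, giving 10. These comparisons share samples with those above, so their values stand side by side and no overlap is drawn from them.

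Other genes of the complex were described by count. Among 13 other nuclear genes (further subunits, the inhibitor Atpif1 and assembly factors), 3 were called higher with insulin in WT livers (Atp5e, Atp5s and Usmg5; median 0.23) and 3 lower with insulin in ERRα-/- livers (Atp5e, Atp5h and Atp5mpl; median −0.22), where 9.14% of all genes were lower. For the other comparisons the shares over all genes are those given above, and 5.98% were called higher in ERRα-/- livers with saline. Usmg5, a small membrane subunit, was at 19.6, 18.3, 21.2 and 20.5 CPM in WT saline and 33.9, 41.1, 26.4 and 30.5 in WT insulin, without overlap. Its log2 fold change was 0.73 (standard error 0.15, adjusted p = 0.0241 by the quasi-likelihood test of edgeR with Benjamini-Hochberg adjustment, 4 of 4 samples higher). With saline, ERRα-/- livers had 1 of the 13 lower (Atp5f1, −0.34) and 1 higher (Atp5s, 0.54), with a median of −0.10. With insulin they had 10 of 13 lower and 0 higher, with a median of −0.61, and the interaction was called in 6 of 13, all above 0. The phosphate carrier Slc25a3 was higher with insulin in WT livers (0.53, standard error 0.12, adjusted p = 0.0422 by the quasi-likelihood test of edgeR with Benjamini-Hochberg adjustment, 4 of 4 samples higher). The mitochondrial genome's own subunit mt-Atp6 was called lower in ERRα-/- livers with saline (−0.40) and not with insulin (0.04), and higher with insulin in ERRα-/- livers (0.31) and not in WT livers (−0.13). Its interaction was not called, at −0.44 with a 95% interval of −0.90 to 0.01. Among 38 complex I subunits, 7 were called higher with insulin in WT livers (median 0.26), 14 lower and 1 higher in ERRα-/- livers with saline (−0.13) and 23 lower with insulin (−0.46). Of 21 subunits of complexes III and IV tested, 12 were higher with insulin in WT livers (0.35), 10 lower in ERRα-/- livers with saline (−0.27) and 19 lower with insulin (−0.68). Of 20 subunits of the V-ATPase, a proton pump of lysosomes that shares its design but not its genes with ATP synthase, 1 was lower in ERRα-/- livers with insulin (−0.07), while 9 of 19 were higher with insulin in WT livers (0.27).

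The members moved together across the 15 livers of the insulin experiment, as a description over samples that share groups. Pearson correlations of log2 CPM between a member and the mean of the others were 0.749 (Atp5g2) to 0.962 (Atp5g1). Among 10877 genes, those most like the mean of the members were Uqcrh (0.981), Sdhd (0.978), Ndufa5 (0.970), Cox6b1 (0.969) and Ndufb9 (0.967). Within WT saline the coefficient of variation was 1.41% for Atp5b, 10.8% for Atp5d and 19.0% for Atp5k, with a median of 8.19% over the members. Atp5k was the most variable member in 7 of the 8 groups.

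In ERRα3SA livers the members were close to WT levels in 3 of 4 samples. Replicate 4 was below all WT livers in all 10 genes, and the share of all genes that were so in that library is not given here. Atp5a1 was at 1262, 1144, 1211 and 1199.6 CPM in WT liver and 1262, 1229, 1406 and 861 in ERRα3SA liver. Atp5g1 was at 193, 167, 183 and 187 CPM in WT liver and 175, 170.4, 177 and 113 in ERRα3SA liver, and Atp5g3 was at 366, 317, 319 and 325 and then 331, 336, 346 and 179. Replicate 4, the library with the lowest sum of hepatocyte genes, gave the last value in each list. It held between 31.9% (Atp5k) and 79.1% (Atp5l) of the mean of the other 3. Atp5k was at 57.7, 51.9, 41.8 and 52.0 CPM in WT liver and 59.2, 64.9, 49.6 and 18.4 in ERRα3SA liver.

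No member was called in either direction in ERRα3SA liver, where 4.88% of the 13339 genes tested were. By the quasi-likelihood test of edgeR with Benjamini-Hochberg adjustment 0 members passed, the lowest adjusted p was 0.767 (Atp5g1, −0.20, 1 of 4 samples below all WT livers), and 0 had an unadjusted p under 0.05, as also in DESeq2. Estimates ran from −0.20 (95% interval −0.49 to 0.10) to 0.05 (Atp5l, −0.16 to 0.26), with a median of −0.03 against −0.00 over all genes. Without replicate 4, 9 of 10 were above 0, the median was 0.09 and the count stayed at 0. The mitochondrially encoded mt-Atp8 was at 2.36, 2.46, 2.19 and 2.28 CPM in WT liver and 4.05, 3.54, 3.63 and 3.56 in ERRα3SA liver, without overlap. Its log2 fold change was 0.67 (standard error 0.13), with an adjusted p of 0.493 by the quasi-likelihood test of edgeR with Benjamini-Hochberg adjustment, higher in 4 of 4 samples. Levels of mt-Atp8 were low next to those of mt-Atp6, with means of 74.5 CPM in WT liver and 77.6 in ERRα3SA liver for mt-Atp6. Of the 13 other nuclear genes, Atp5s was called higher (0.29) and none lower, with a median of −0.01.

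In ERRα3SA muscle, replicates 2, 3 and 4 were above all WT muscles in 6 members and replicate 1 stood apart from them. The share of all genes with that pattern is not given here. Without replicate 1, 10.3% of the 14363 genes tested were called higher. Slow fibre genes Myh7 and Tnnc1 were below all WT muscles in replicates 2, 3 and 4, while Myh2, Myl2, Myl3 and Tnnt1 overlapped. Their part in the result was not tested. Atp5k gave the widest gap. It was at 41.4, 31.1, 18.2 and 32.4 CPM in WT muscle and 15.5, 105, 97.7 and 93.0 in ERRα3SA muscle. Atp5g3 was at 285, 271, 232 and 219 CPM in WT muscle and 143, 436, 457 and 365 in ERRα3SA muscle. Atp5g1 was at 302, 342, 305 and 312 CPM in WT muscle and 139.5, 477, 501 and 442 in ERRα3SA muscle. In all of these replicate 1 was below every WT muscle and replicates 2, 3 and 4 above every WT muscle. Atp5d was at 247, 249, 204 and 236 CPM in WT muscle and 84.8, 309, 335 and 308 in ERRα3SA muscle. Atp5o was at 135, 137, 122 and 136 CPM in WT muscle and 129, 175, 194 and 153 in ERRα3SA muscle, and Atp5l was at 125, 119, 107 and 102 and then 77.2, 144, 135 and 130.0. The same 3 samples were on top, though for Atp5o replicate 1 lay within the WT range. Atp5g2 did not follow the other paralogs, at 109, 109, 91.3 and 97.8 CPM in WT muscle and 23.2, 110.1, 110.3 and 89.7 in ERRα3SA muscle. Atp5c1 was at 569, 639, 594 and 590.4 CPM in WT muscle and 892, 649, 655 and 511 in ERRα3SA muscle, where replicate 1 was the highest and replicate 4 the lowest of all 8. The large α and β subunits overlapped between the groups, Atp5a1 at 1896, 2092, 1834 and 1929.6 CPM against 1831, 2345, 2580.5 and 1862, and Atp5b at 2433, 2682, 2503 and 2680.1 against 2279, 2876, 3016 and 2336.

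**Figure D3:**
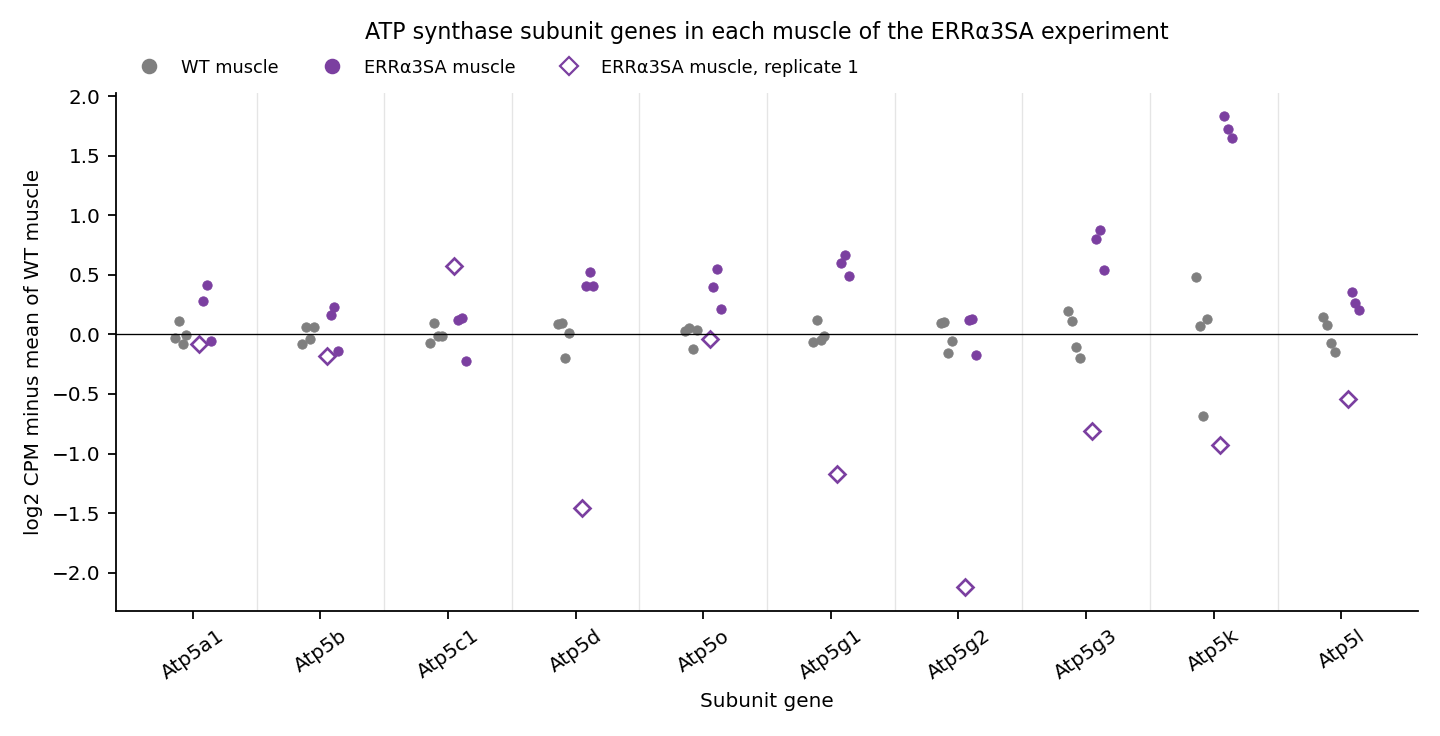
Log2 CPM of the 10 subunit genes in each muscle of the ERRα3SA experiment, relative to the mean of WT muscle, with ERRα3SA replicate 1 as an open diamond. Replicates 2, 3 and 4 lie together above WT muscle for Atp5d, Atp5o, Atp5g1, Atp5g3, Atp5k and Atp5l, and replicate 1 lies below for 5 of these 6.

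With all samples, 2 of 10 members were called higher in ERRα3SA muscle and 0 lower, where 2.78% of the 14081 genes tested were called higher. Atp5k was at 1.37 (standard error 0.50, 95% interval 0.25 to 2.49) and Atp5o at 0.32 (standard error 0.14, 0.02 to 0.63), each above all WT muscles in 3 of 4 samples. By the quasi-likelihood test of edgeR with Benjamini-Hochberg adjustment 0 members passed, both having an adjusted p of 1, and DESeq2 called the same count of 2, with 0 under 0.05 after adjustment. Without the filter on low counts Atp5o was not called (0.31, 95% interval −0.01 to 0.63). The median was 0.19, against 0.02 over all genes. Leaving out replicate 1 changed these numbers most. Then 6 members were called higher, where 10.3% of 14363 genes were, and 5 were among the 2.37% higher at an adjusted p under 0.05, with a median of 0.37. Atp5k was at 1.72 (standard error 0.21), Atp5g3 at 0.77 (0.11), Atp5g1 at 0.62 (0.07), Atp5d at 0.48 (0.08) and Atp5o at 0.43 (0.08), above all WT muscles in the 3 remaining samples, with adjusted p-values of 0.0044 (Atp5g1) to 0.0285 (Atp5o) by the quasi-likelihood test of edgeR with Benjamini-Hochberg adjustment. Over all alternatives the adjusted p of Atp5g1 ran from 0.0044 to 1. Atp5l, at 0.31 (0.08), was called too, and Atp5b, Atp5c1 and Atp5g2 were at 0.12, 0.05 and 0.06. Atp5a1, at 0.26 (95% interval 0.02 to 0.49), was not called, since its fold change of 1.19 was under the cutoff. The count was 1 without WT muscle replicate 1, 2 or 4 or ERRα3SA muscle replicate 3 (Atp5k) and without ERRα3SA muscle replicate 4 (Atp5o), and 0 without WT muscle replicate 3 or ERRα3SA muscle replicate 2.

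Replicate 1 held 15.7% of the mean of the other 3 for Atp5k, 22.5% for Atp5g2, 26.7% for Atp5d, 29.5% for Atp5g1 and 34.1% for Atp5g3, but 80.9% for Atp5a1, 83.1% for Atp5b and 148% for Atp5c1. Over the 8 muscles the correlation of Atp5c1 with the mean of the other members was −0.609, and without replicate 1, over 7, it was 0.288. Over those 7 muscles the genes most like the members' mean, among 11592, were Mettl26 (0.997), Acadvl (0.996), Pebp1, Smdt1 and Cdc34 (0.995 each).

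The difference between the tissues in the effect of ERRα3SA was also tested. As the effect in muscle minus that in liver, 1 of 10 members was called higher, where 3.16% of 15688 genes were, and the median was 0.20 against 0.00. That gene was Atp5k, at 1.42 (standard error 0.63, 95% interval 0.10 to 2.75), with an adjusted p of 0.867 by the quasi-likelihood test of edgeR with Benjamini-Hochberg adjustment, and 3 of 4 ERRα3SA muscles and 2 of 4 ERRα3SA livers were above all WT samples of their tissue. Over the alternatives its adjusted p ran from 0.0101 to 1. By the same test 0 members were under 0.05 after adjustment and 1 had an unadjusted p under 0.05, as in DESeq2, which called 1. Without ERRα3SA muscle replicate 1, 5 members were called (Atp5d, Atp5o, Atp5g1, Atp5g3 and Atp5k), where 8.53% of 16019 genes were, with a median of 0.34. Atp5g1 was then at 0.78 and Atp5k at 1.76, both among the 1.24% of genes higher at an adjusted p under 0.05. Leaving out ERRα3SA liver replicate 4 as well, a choice made after seeing the data, kept 5 calls and gave a median of 0.26, with Atp5k at 1.53 and Atp5g1 at 0.68. The count of 1 fell to 0 when WT liver replicate 1, 2 or 4, ERRα3SA liver replicate 4, WT muscle replicate 2 or 3, or ERRα3SA muscle replicate 2, 3 or 4 was left out, with Atp5k between 1.18 and 1.43. Of the 13 other nuclear genes 0 were called (median 0.11), of complex I 13 of 38 were higher (0.29), and of complexes III and IV 5 of 24 (0.26). The V-ATPase had 1 of 20 lower (0.01), and among the carriers Slc25a4 was higher.

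Of the 13 other nuclear genes, 0 were called in ERRα3SA muscle (median 0.10), and Atp5e was called higher and Atpif1 lower without replicate 1. The ATP carrier Slc25a4 was at 2779, 3007, 2653 and 2732 CPM in WT muscle and 3198, 3981, 3967 and 3199 in ERRα3SA muscle, without overlap (0.39, standard error 0.13). The mitochondrially encoded mt-Atp8 was at 7.10, 8.85, 10 and 9.17 CPM in WT muscle and 24.4, 2.81, 3.37 and 3.65 in ERRα3SA muscle, so that replicate 1 was the highest and the other 3 were below all WT muscles. Complex I had 14 of 38 subunits called higher and 0 lower (median 0.26), and 20 without replicate 1. Complexes III and IV had 4 of 24 higher (0.22), and 14 without replicate 1, and the V-ATPase had 1 of 19 lower (0.07), and 4 higher without replicate 1.

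Between the tissues of WT mice, muscle held more of most subunits, but not of δ, e or Atp5g3. Atp5a1, Atp5b, Atp5c1, Atp5o, Atp5g1, Atp5g2 and Atp5l were above every liver in every muscle. Atp5b was at 1478, 1353, 1345 and 1390.5 CPM in WT liver, Atp5c1 at 291, 263, 277 and 271, and Atp5o at 67.4, 67.9, 65.4 and 66.2, well below the muscle values above. Atp5g3 and Atp5k went the other way, with every muscle below every liver. Atp5d, at 260.3, 242, 259 and 260.0 CPM in WT liver, overlapped the muscles. Atp5g2 was at 59.7, 56.7, 60.7 and 66.6 CPM and Atp5l at 68.1, 66.8, 68.6 and 67.3 CPM in WT liver.

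Of the 10 members, 7 were called higher in WT muscle and 2 lower, where 42.0% of the 14886 genes tested were called higher and 42.2% lower, so the tissues differed in most genes. The members' median was 0.77, against 0.00 over all genes, and 9 passed an adjusted p under 0.05. The γ subunit Atp5c1 was highest, at 1.15 (standard error 0.07, 2.22-fold), then Atp5o at 1.02 (0.06, 2.03-fold), with adjusted p-values of 1.45e-09 and 9.42e-10 by the quasi-likelihood test of edgeR with Benjamini-Hochberg adjustment and 4 of 4 muscles higher. By the quasi-likelihood test of edgeR with Benjamini-Hochberg adjustment, Atp5g3 was at −0.36 (standard error 0.09, adjusted p = 0.00218) and Atp5k at −0.69 (0.18, adjusted p = 0.00296), with 4 of 4 muscles lower. Fitted together with the ERRα3SA groups these last 2 were no longer called, with adjusted p-values over the alternatives of 0.000193 to 0.193 for Atp5g3 and 3.84e-07 to 0.146 for Atp5k. The median over all genes moved to 0.17 with DESeq2 and 0.15 with no filter on low counts, and the 2 lower members kept their sign under both. The other 13 nuclear genes had 11 higher and 0 lower (median 0.78), and complex I had 28 higher and 2 lower of 38 (0.73). Complexes III and IV had 17 higher and 5 lower of 24 (0.58), and the V-ATPase 7 higher and 10 lower of 20 (−0.08).

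**Figure D4:**
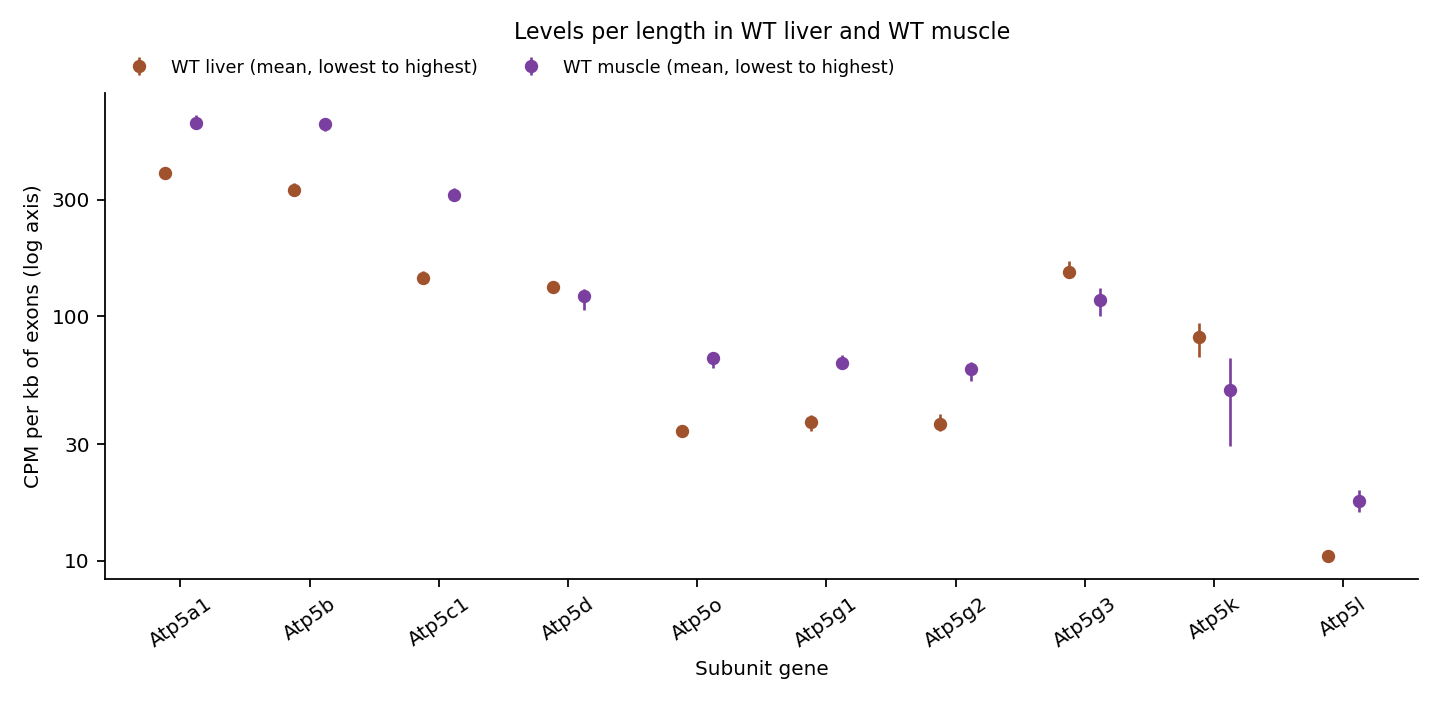
Level per length of the 10 subunit genes in WT liver and WT muscle, as CPM per kb of the union of exons on a log axis. Atp5a1 and Atp5b are on top in both tissues and Atp5l is lowest, while Atp5g3 and Atp5k are lower in muscle than in liver.

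Levels of different genes were compared as CPM per kb of exons, with the count tables normalized separately and so not set against each other. In WT liver the order of these levels was Atp5a1 (mean 384), Atp5b (329), Atp5g3 (152), Atp5c1 (144), Atp5d (132), Atp5k (82.6), Atp5g1 (37.1), Atp5g2 (36.4), Atp5o (33.8) and Atp5l (10.5). Atp5g3 overlapped Atp5c1, Atp5g1 overlapped Atp5g2 and Atp5g2 overlapped Atp5o, and the other neighbours were apart. In WT muscle Atp5a1 (618) and Atp5b (608) overlapped, Atp5c1 (313) followed, and Atp5d (121) overlapped Atp5g3 (116). Then came Atp5o (67.2), Atp5g1 (64.2), Atp5g2 (60.7) and Atp5k (50), each overlapping the next, and Atp5l (17.5). In WT saline, within its own table, the order was Atp5a1 (272), Atp5b (217), Atp5d (77.8), Atp5c1 (77.1), Atp5g3 (72.7), Atp5o (36.7), Atp5g2 (22.6), Atp5k (17.7), Atp5g1 (12.1) and Atp5l (8.73). There Atp5d, Atp5c1 and Atp5g3 overlapped in turn, as did Atp5g2 and Atp5k. The length matters for this order, since the union of exons holds 6443 bases for Atp5l and 4912 for Atp5g1 against 544 and 596 in the shortest transcript with a RefSeq mRNA. With that length, chosen after seeing the data, Atp5b led in WT saline (481) ahead of Atp5a1 (345), and Atp5l (103) and Atp5g1 (100) stood above Atp5o (86.3).

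The share of each paralog in the subunit c transcripts, from the same level per length, differed between tissues and genotypes. With the union of exons, Atp5g3 gave most of the counted transcripts in every sample, with means of 67.7% in WT saline, 67.4% in WT liver and 47.9% in WT muscle. Of the 50-base words in the main transcript, 66% of Atp5g1 and 87.4% of Atp5g2 also stand in other annotated genes, against 0% of Atp5g3. How reads matching several genes were counted is not given in the sources used here. The part of this in the shares and in the levels per length was not tested. Atp5g1 gave 11.1, 10.6, 11.7 and 11.6% in WT saline and 8.86, 9.04, 10.3 and 8.49% in ERRα-/- saline. With insulin it gave 11.1, 10.7, 12.2 and 12.0% in WT livers and 8.37, 8.27 and 9% in ERRα-/- livers. Neither pair of groups overlapped, so ERRα-/- livers had a smaller share of Atp5g1 with either treatment. Atp5g2 gave 25.2, 25.1, 24.4 and 26.3% in WT muscle and 12.9, 18.1, 17.4 and 17.2% in ERRα3SA muscle, and Atp5g3 gave 50.9, 48.0, 47.8 and 45.1% and then 60.8, 55.1, 55.5 and 53.8%. With this length the groups did not overlap with replicate 1 or without it, although that library stood apart in its absolute levels. In livers the shares of WT and ERRα3SA overlapped for all 3 paralogs. The shares depend on length, and with the shortest RefSeq transcripts Atp5g1 gave 51.9% and Atp5g3 34.5% in WT muscle, which turns their order, while Atp5g2 still gave less in ERRα3SA muscle (6.82 to 9.64%) than in WT muscle (13.0 to 14.1%) and the shares of Atp5g3 overlapped (31.8 to 37.9% in WT and 37.2 to 43.0% in ERRα3SA muscle).

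**Figure D5:**
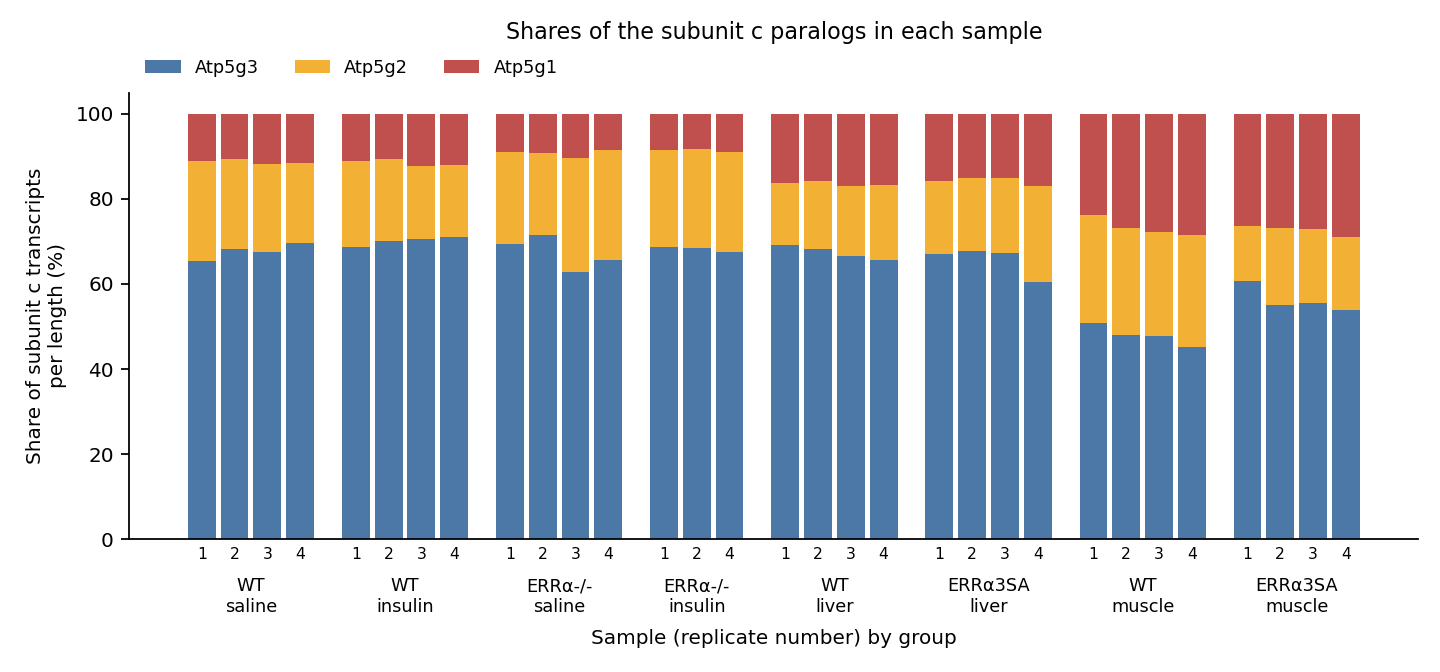
Shares of Atp5g1, Atp5g2 and Atp5g3 in the subunit c transcripts of each sample, from CPM per kb of the union of exons. Atp5g1 takes a smaller share in ERRα-/- than in WT livers and a larger one in muscle, and Atp5g2 takes a smaller share in ERRα3SA than in WT muscle.

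Promoters of the members were searched for elements of ERR receptors and of other factors known from genes of oxidative metabolism. RefSeq windows of GRCm38.p6, from 250 bases before to 50 after the start site, were available for 9 of the 10 members (not Atp5a1), in 11 windows. On both strands, TNAAGGTCA, the element of ERR receptors, was in 1 member (Atp5g3) and in 1.28% of the 32851 windows of all genes. The NRF1 core GCATGCGC was in Atp5g2, Atp5k and Atp5l and in 2.71% of all windows, the ETS element CCGGAAG in Atp5k and Atp5l and in 8.86%, and the Sp1 box GGGCGG in Atp5b and Atp5g2 and in 35.7%. The shorter AAGGTCA, searched after seeing the data, was in Atp5g3, Atp5k and Atp5l and in 4.72% of all windows. Shown are the 250 bases before the start site of Atp5g3 (chr2:73911327-73911576, minus strand), the member with the ERR element, and of Atp5k (chr5:108434400-108434649, minus strand), the member with the largest estimate in ERRα3SA muscle. Capitals mark the ERR element, read on the opposite strand 52 bases before the start in Atp5g3, and 2 overlapping NRF1 cores on opposite strands 50 and 48 bases before the start in Atp5k.
Atp5g3: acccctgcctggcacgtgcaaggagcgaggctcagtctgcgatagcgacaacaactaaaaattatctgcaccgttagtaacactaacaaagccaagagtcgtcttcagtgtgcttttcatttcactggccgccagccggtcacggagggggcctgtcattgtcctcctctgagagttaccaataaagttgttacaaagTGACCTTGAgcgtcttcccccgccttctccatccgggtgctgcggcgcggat
Atp5k: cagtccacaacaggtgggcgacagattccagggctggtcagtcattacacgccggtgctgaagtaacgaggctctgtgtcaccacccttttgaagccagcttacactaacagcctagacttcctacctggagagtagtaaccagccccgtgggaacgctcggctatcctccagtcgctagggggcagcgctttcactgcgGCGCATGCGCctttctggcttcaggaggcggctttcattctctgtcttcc
Atp5g3 was called lower in ERRα-/- livers with insulin (−0.76, standard error 0.17) and not with saline (−0.21, 0.11), with an interaction of 0.53, and Atp5o and Atp5g1, without the ERR element in their windows, had the lowest estimates in those comparisons. A match is a description of letters, and binding was not measured here.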

How the data were processed

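The values are the raw counts per gene deposited by the authors, in 1 count table per experiment. The submitters' processing notes name mm10 and STAR, and the paper names STAR both for alignment and for the counts per gene. The strand setting of the counting is not given in the sources used here. Members and lists were chosen with earlier results of these data known. A gene was named when it was one of the 10 subunits, Esrra, another gene of complex V or its carriers, among the 5 genes most like the members, a marker of a tissue or cell type, or a gene whose exons overlap a member, and complex I, complexes III and IV and the V-ATPase are given by count. Ensembl IDs were mapped to symbols with GENCODE vM21 (97.8% of 35275 IDs in the insulin table, 99.9% of 54532 in the other). Atp5o has a further ID, without counts, that was left aside.

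Libraries were scaled by TMM within each table, genes filtered by filterByExpr, and each comparison was fitted on its own groups by the quasi-likelihood test of edgeR with Benjamini-Hochberg adjustment over all genes tested. Calls need p under 0.05 before adjustment and at least a 1.2-fold difference. Log2 CPM used a prior count of 2. Intervals are 95% intervals. The interactions are the insulin effect in WT minus that in ERRα-/-, and the ERRα3SA effect in muscle minus that in liver. Level per length used the union of exons. Promoters were RefSeq windows of 300 bases.

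Alternatives were DESeq2, RLE size factors, no filter on low counts, replicate number as a block, animals as a block across tissues, all groups in one fit, the longest coding transcript as length, and leaving out each sample in turn. Chosen after seeing the data were the shortest transcript with a RefSeq mRNA as length, ERRα3SA muscle replicate 1 and ERRα3SA liver replicate 4 left out together, and the short motif AAGGTCA.

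R 4.3.3 ran edgeR 4.0.16, DESeq2 1.42.0 and limma 3.58.1, and Python 3.11 ran pandas 2.3.3, numpy 2.4.6 and matplotlib 3.10.9.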

Additional observations from a re-analysis of the deposited data

Results flagged for a closer look

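Values were marked here in 2 ways: a sample far from the other 3 of its group of 4, taking each member and Esrra in turn, and an effect that was called as different between groups by the interaction. The first was tested in 77 groups of 4 and marked 15. Chance alone marks about 1 in 20 such groups, which is about 3.85 here.

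Far from their group in the insulin experiment were Esrra in WT insulin replicate 2 (96.5 CPM), Atp5o in ERRα-/- saline replicate 4 (49.7 CPM) and Atp5g1 in ERRα-/- saline replicate 2 (42.9 CPM). In the livers of the ERRα3SA experiment they were Atp5d in WT liver replicate 2 (242 CPM) and Atp5g3 in WT liver replicate 1 (366 CPM), and, in ERRα3SA liver replicate 4, Atp5b (1083 CPM), Atp5d (169.6 CPM), Atp5g1 (113 CPM) and Atp5g3 (179 CPM). In muscle they were Atp5o in WT muscle replicate 3 (122 CPM) and, in ERRα3SA muscle replicate 1, Atp5d (84.8 CPM), Atp5g1 (139.5 CPM), Atp5g2 (23.2 CPM), Atp5k (15.5 CPM) and Atp5l (77.2 CPM). Of the 15, 9 came from those 2 libraries.

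Called at an unadjusted p as different between genotypes in the effect of insulin were Atp5c1 (log2 interaction 0.43), Atp5d (0.42), Atp5g1 (0.61), Atp5g3 (0.53) and Atp5l (0.61). Called in the same way as different between tissues in the effect of ERRα3SA was Atp5k (1.42). In the main fits no member passed after adjustment in either interaction. With 1 sample left out, 2 to 6 members were called for the first and 0 to 5 for the second.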

How the results depend on the processing

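Members called, and the median log2 fold change of the members, are given over the fits that leave out 1 sample at a time. Insulin in WT livers had 3 to 7 called higher (6 with all samples) and a median of 0.23 to 0.39, and insulin in ERRα-/- livers 0 to 1 called (0 with all) and −0.22 to −0.01. ERRα-/- against WT livers had 5 to 6 lower with saline (5 with all), −0.40 to −0.28, and 9 to 10 lower with insulin (9 with all), −0.87 to −0.64. The interaction of genotype and insulin had 2 to 6 (5 with all), 0.28 to 0.49. ERRα3SA against WT had 0 to 0 in liver, −0.10 to 0.09, and 0 to 6 in muscle (2 with all), 0.15 to 0.37. The interaction of genotype and tissue had 0 to 5 (1 with all), 0.10 to 0.34. Muscle against liver in WT had 7 to 7 higher and 2 to 2 lower, 0.71 to 0.78.

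With the replicate block the counts and medians were 6 and 0.32 for insulin in WT livers, 0 and −0.17 for insulin in ERRα-/- livers, 5 and −0.37 for ERRα-/- against WT livers with saline, and 10 and −0.85 with insulin. They were 5 and 0.45 for the interaction of genotype and insulin, 0 and −0.05 for ERRα3SA liver, 0 (2 without the block) and 0.17 for ERRα3SA muscle, and 0 (1 without the block) and 0.18 for the interaction of genotype and tissue. Muscle against liver in WT had 7 higher and 2 lower with a median of 0.77 under the replicate block. Taking a liver and a muscle with the same number as 1 mouse gave 0 called and a median of 0.17 for the interaction of genotype and tissue. The values do not show that equal numbers pair the samples, since no 2 groups had every correlation over 0.1 (WT saline with WT insulin, 3 of 4 over it, −0.00829 to 0.432). Whether a liver and a muscle with the same number come from 1 mouse is not stated.

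Without a filter on low counts 1 member was called higher in ERRα3SA muscle (2 with it). With all groups in one fit 0 members were called lower in muscle against liver (2 in the fit of those groups alone). Leaving out ERRα3SA muscle replicate 1 and ERRα3SA liver replicate 4 together, chosen after seeing the data, gave 5 called for the interaction of genotype and tissue (1 with all). The cause was not tested.

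The level per length, highest over lowest member, was 31.1 in WT saline, 36.6 in WT liver and 35.2 in WT muscle. With the longest coding transcript it was 38.0 in WT saline, 18.8 in WT liver and 20.1 in WT muscle, and with the shortest RefSeq transcript, chosen after seeing the data, 16.3, 9.12 and 16.2 in the same order.

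The share of Atp5g1 in subunit c transcripts, given with the longest coding and then the shortest RefSeq transcript, was 4.47 and 26.7% in WT saline (11.3% with the union of exons), 4.53 and 27.0% in WT insulin (11.5%), 3.61 and 22.5% in ERRα-/- saline (9.16%) and 3.34 and 21.2% in ERRα-/- insulin (8.55%). It was 6.69 and 35.8% in WT liver (16.5%), 6.44 and 34.9% in ERRα3SA liver (15.8%), 12.2 and 51.9% in WT muscle (26.8%) and 12.1 and 51.7% in ERRα3SA muscle (27.3%). The share of Atp5g3 was 77.7 and 59.4% in WT saline (67.7%), 79.9 and 61.0% in WT insulin (70.0%), 76.7 and 61.4% in ERRα-/- saline (67.4%) and 77.3 and 62.8% in ERRα-/- insulin (68.3%). It was 79.3 and 54.4% in WT liver (67.4%), 77.4 and 53.7% in ERRα3SA liver (65.6%), 63.2 and 34.5% in WT muscle (47.9%) and 72.3 and 39.6% in ERRα3SA muscle (56.3%).

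The ERR element was in 1 member, and in 3 with the short motif AAGGTCA, chosen after seeing the data.

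Of the members' single log2 values, 850 came from fits without 1 sample. Of these 35 lost a call, 15 gained one and 0 reversed, and the other 800 were called in both fits or in neither, 29 of them turning sign while uncalled. The other alternatives gave 480 values, of which 8 lost a call, 7 gained one, 0 reversed and 465 were called in both fits or in neither, 2 of them turning sign while uncalled.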
